A study of Mus musculus with 6 samples.

Results

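The transcripts described here are those of 37 genes for lysosomal enzymes, activators, membrane proteins and their transcription factor Tfeb, among 55335 Ensembl genes counted by bulk RNA sequencing of the mouse substantia nigra. The members are a list of names, chosen with earlier results of these data known. They were matched to the count files through the gene symbols of the mm10 annotation, and all 37 were found. The substantia nigra is the midbrain nucleus that holds dopaminergic neurons, and the series asked what changes there after knockdown of Dnajb1, which codes for an HSP40 co-chaperone. The control group was 3 libraries from C57 mice titled WT. The other group was 3 libraries from C57 mice labelled shDNAJB1, a name for a short hairpin targeting Dnajb1. The labels used here do not state age, sex, the vector and its route, the cells it reached or whether control mice received a hairpin. They do not state either whether each library is a different mouse, so a p-value covers the spread among these libraries alone, and that spread may be technical.

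Lysosomes are acidic organelles in which proteins, glycans, glycogen and lipids are broken down. Soluble hydrolases reach them mostly through mannose 6-phosphate receptors, heavily glycosylated proteins such as LAMP1 line their membrane, and channels and pumps set their ion content. TFEB, when it is not held in the cytosol by mTORC1 signalling, enters the nucleus and binds CACGTG-type sites near many of these genes. Inherited loss of single members causes lysosomal storage diseases that often affect the brain, and several members, such as Atp13a2 and Tmem175, are known from the genetics of Parkinson disease.

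Total counts were 24541386 to 38468363 per library. The 37 members had 170 to 55234 counts in a library, which puts the counting error at 0.425% to 7.67%, counting only. Dnajb1 was at 59.8, 47.2 and 51.9 CPM (library-scaled counts with TMM factors, as all CPM given here) in control 1, 2 and 3, and at 44.3, 52.4 and 52.5 CPM in shDNAJB1 1, 2 and 3, so the groups overlapped and no fall of the target was detected (edgeR quasi-likelihood adjusted p = 0.909). The second group is therefore called the libraries labelled shDNAJB1. The dopaminergic marker genes of the tissue were present in every library, with a summed level of 1124 to 3804 CPM for 10 genes, and none of the 10 was at 0.

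Transcripts of the lysosome differed widely in level. Scaled to exon length, Psap, the precursor of the saposins that present sphingolipids to hydrolases, led with 485 CPM per kilobase as a mean of 6 libraries. Lamp1, a membrane glycoprotein, followed with 158, Ctsd, the aspartic protease cathepsin D, with 145, and Ids, an enzyme of heparan and dermatan sulfate breakdown, with 118 CPM per kilobase. Gaa, the acid glucosidase that degrades glycogen, had 104 and Ctsb, the cysteine protease cathepsin B, 94.1 CPM per kilobase. At the low end were Ctsh with 2.21, Galc with 2.17 and Tfeb with 1.89 CPM per kilobase. The exon length counts every annotated isoform, so a gene with long unused exons reads low on this scale.

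**Figure D1:**
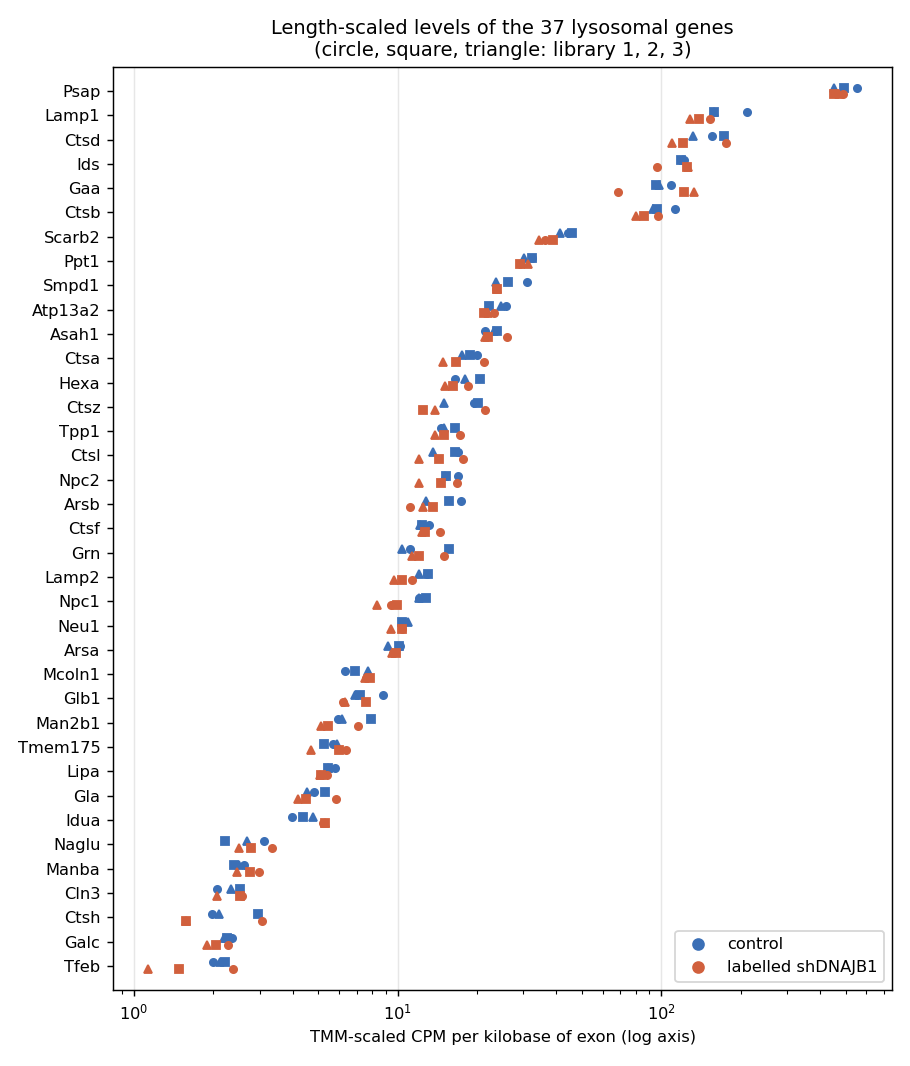
Length-scaled level of each of the 37 lysosomal genes, in TMM-scaled CPM per kilobase of exon on a log axis, with 1 point per library (circle, square and triangle for libraries 1, 2 and 3), blue for control and orange for the libraries labelled shDNAJB1. Psap stands above all others and Tfeb is lowest, and for most genes the 6 points lie close together beside the range between genes.

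No member passed the threshold between the groups, but values below control were more frequent than values above it. By edgeR's quasi-likelihood test with Benjamini-Hochberg adjustment over 18870 genes, 0 of the 37 members and 0.00% of all genes had an adjusted p under 0.05, and the smallest adjusted p of a member was 0.765, which was also the smallest of any gene. DESeq2's Wald test also called 0 members, against 0.109% of the genes it adjusted, and limma-voom called 0 genes. At an unadjusted p under 0.05, edgeR had 3 members lower and 0 higher, or 8.11% of the members lower against 3.33% of all genes lower and 3.04% higher. The log2 fold change was below 0 for 27 of the 37 members, with a median of -0.10, against 49.2% of all genes tested and a median of 0.01. The members share cells and regulators and were chosen with earlier results of these data known, so these shares are a description without a test of the list.

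The differences were small. The log2 fold changes of the members ran from -0.41 to 0.27 with SE of 0.10 to 0.30. For all 37 members the 95% interval lay within a 2-fold change in either direction, and for 22 it lay within 0.5 on the log2 scale. For 6 members every library labelled shDNAJB1 was below every control library, which is 16.2% of the members against 7.06% of all genes. These were Lamp1, Lamp2, Scarb2, Neu1, Npc1 and Lipa. Idua alone had all 3 libraries labelled shDNAJB1 above all controls, 2.70% of the members against 6.98% of all genes.

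Single libraries moved these counts. The 3 members with an unadjusted p under 0.05 became 1 without control 1, control 2, shDNAJB1 2 or shDNAJB1 3, and 8 without shDNAJB1 1, of which 7 were lower and 1 higher. Where 1 member remained, 2.10% to 3.08% of all genes were lower and 1.74% to 3.42% higher at that threshold. Without shDNAJB1 1 the shares of all genes were larger too, at 6.82% lower and 6.08% higher. The 3 lower and 0 higher members became 1 lower and 1 higher with upper-quartile scaling, where 2.88% of all genes were lower and 3.56% higher. With a stricter filter they became 2 lower and 1 higher, where 3.75% of all genes were lower and 2.92% higher. The higher member was Idua in both. The 7 members with separate groups became 12 without control 3 and 21 without shDNAJB1 1, where 22.1% and 34.97% of all genes were separate. With all 6 libraries they became 5 with upper-quartile scaling and 5 with the stricter filter, where 13.9% and 14.7% of all genes were separate. In each of these, 4 were lower and 1 higher, against 5.92% and 7.52% of all genes lower. DESeq2 size factors gave 5 lower and 1 higher, where 14.1% of all genes were separate and 7.22% lower. Npc1 was the only member with an unadjusted p under 0.05 in each of the 14 alternatives run.

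**Figure D2:**
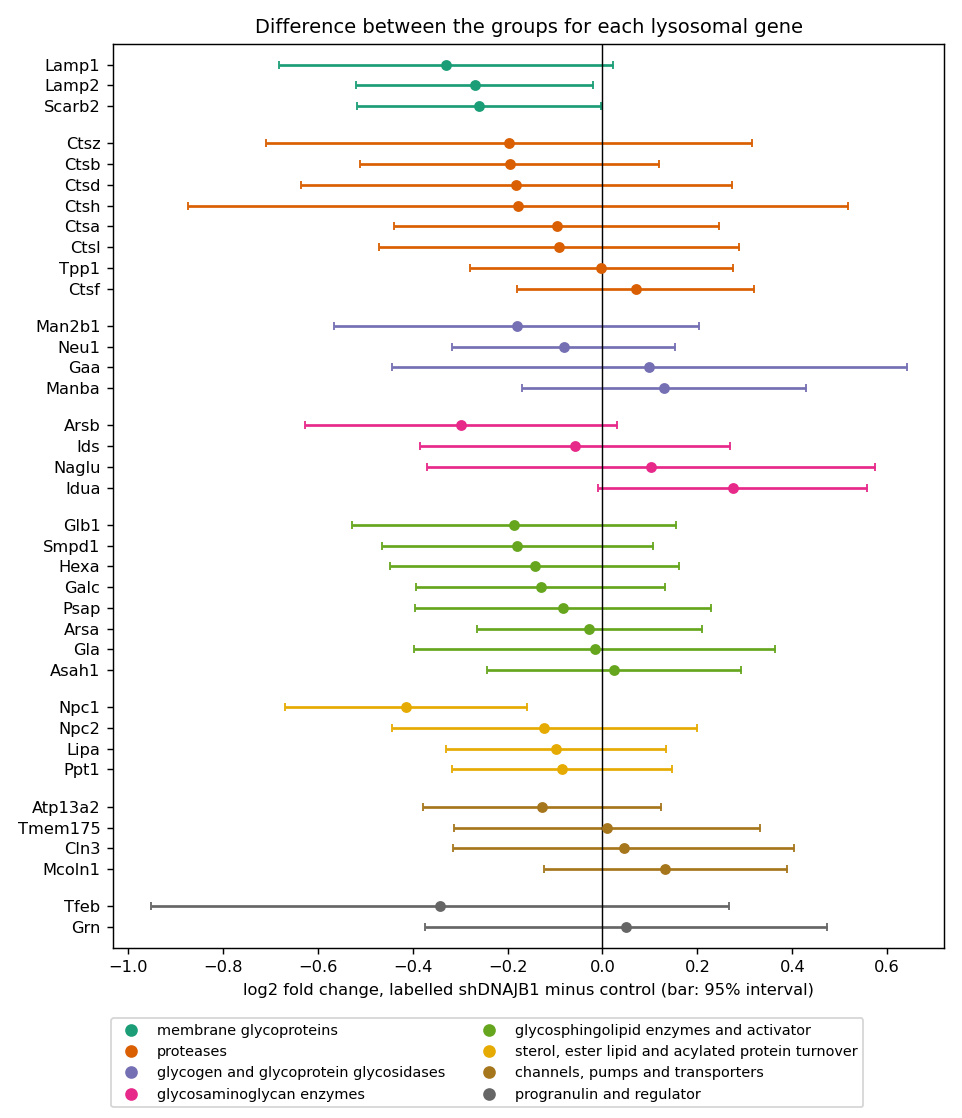
Log2 fold change of each of the 37 lysosomal genes, libraries labelled shDNAJB1 minus control, by role, with 95% intervals from edgeR. Only the intervals of Lamp2, Scarb2 and Npc1 leave out 0, before any adjustment for the number of genes tested.

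The membrane glycoproteins were lower in all 3 members, and each of the 3 had separate groups. Lamp1 (ENSMUSG00000031447, chromosome 8, 13159161 to 13175338 of mm10, plus strand) codes for one of the most abundant proteins of the lysosomal membrane. The 3 controls had 564, 425 and 425 CPM, against 409, 372 and 344 CPM in shDNAJB1 1, 2 and 3. Control 1 stood above the rest, and the other 2 controls lay just above shDNAJB1 1. Its log2 fold change was -0.33 (SE 0.15, unadjusted p = 0.0625, adjusted p = 0.765 by edgeR), and without control 1 it was -0.17.

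Lamp2 (ENSMUSG00000016534, chromosome X, 38401357 to 38456454, minus strand) codes for a relative of LAMP1 whose LAMP2A isoform takes part in chaperone-mediated autophagy. It was at 123, 124 and 116 CPM in controls and 109, 99.6 and 92.9 CPM in the libraries labelled shDNAJB1. The means of 121 ± 4.80 and 100.4 ± 7.94 CPM (SD, n = 3 each) gave a log2 fold change of -0.27 (SE 0.11, unadjusted p = 0.0371, adjusted p = 0.765 by edgeR). The counts are per gene and do not separate the isoforms of Lamp2.

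Scarb2 (ENSMUSG00000029426, chromosome 5, 92441314 to 92506833, minus strand) codes for LIMP-2, the membrane receptor that carries beta-glucocerebrosidase to lysosomes. It was at 278, 288 and 259 CPM in controls and 228, 245 and 216 CPM in the libraries labelled shDNAJB1. The highest labelled library, shDNAJB1 2, was below the lowest control, and the log2 fold change was -0.26 (SE 0.11, unadjusted p = 0.0483, adjusted p = 0.765 by edgeR). With any 1 library left out the unadjusted p by edgeR was 0.0605 to 0.149. Over the 14 alternatives it was under 0.05 in 4 for Scarb2, 4 for Lamp1 and 8 for Lamp2.

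**Figure D3:**
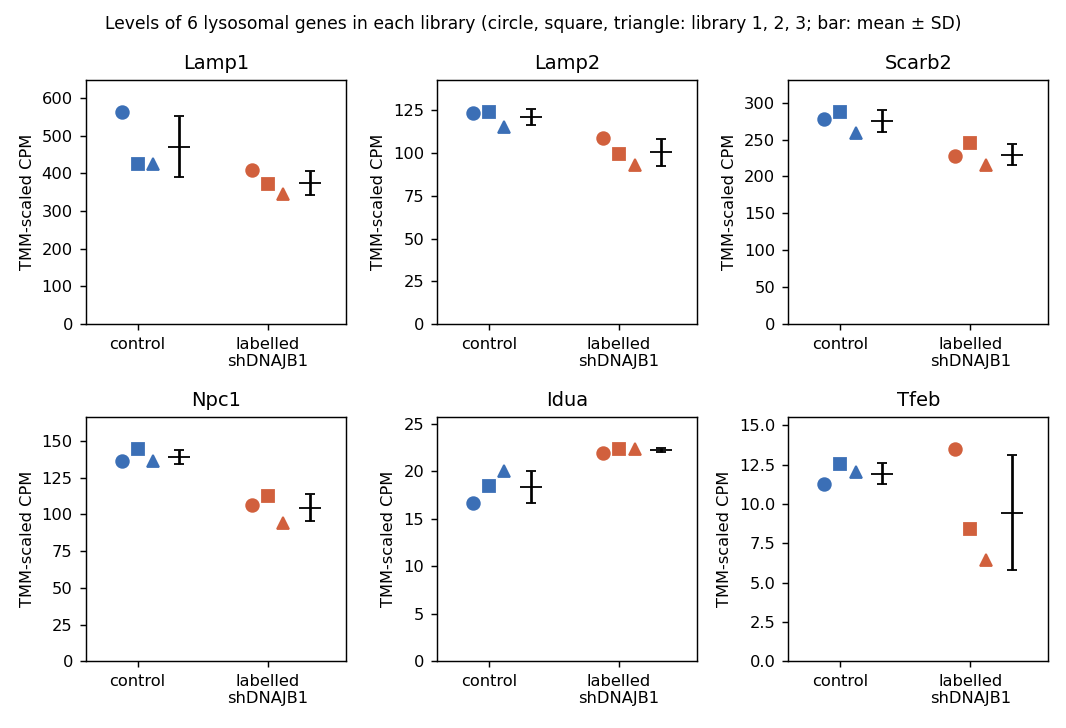
TMM-scaled CPM of Lamp1, Lamp2, Scarb2, Npc1, Idua and Tfeb in each library, with the group mean ± SD beside the points (n = 3). The groups do not overlap for the first 5 genes, Idua is higher in the libraries labelled shDNAJB1, and for Tfeb the 3 labelled libraries spread from 6.43 to 13.5 CPM around the controls.

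Genes of sterol, ester lipid and acylated protein turnover were lower in 4 of 4 members. Npc1 (ENSMUSG00000024413), the membrane transporter that moves cholesterol out of lysosomes, was at 136, 145 and 137 CPM in controls and 107, 112 and 94.4 CPM in the libraries labelled shDNAJB1. All 3 labelled libraries lay well below the tight control values. A log2 fold change of -0.41 (SE 0.11) was the lowest of any member and corresponds to 75.1% of the control level, with a 95% interval from 62.9% to 89.5% (unadjusted p = 0.00562, adjusted p = 0.765 by edgeR). It stayed between -0.46 and -0.34 on leaving out 1 library, and the adjusted p over all alternatives ran from 0.250 to 0.999. Exons of Npc1 share 511 bases with those of Rmc1 on the opposite strand.

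Npc2 codes for the soluble protein that hands cholesterol to NPC1, and its groups overlapped, unlike those of Npc1. It was at 82.5 to 91.8 CPM in controls and 65.5 to 91.0 CPM in the libraries labelled shDNAJB1 (log2 fold change -0.12, SE 0.14). Lipa, the acid lipase that releases cholesterol from esters, had narrow and separate groups at 36.8 to 39.2 against 34.3 to 36.6 CPM, a gap smaller than the SD within either group. Ppt1, the thioesterase that removes palmitate from proteins, was the highest of the 4 per kilobase. It was at 119, 119 and 111 CPM in controls and 107, 107 and 115 CPM in the libraries labelled shDNAJB1, with a log2 fold change of -0.09 (SE 0.10, adjusted p = 0.880 by edgeR), and shDNAJB1 3 lay inside the control range.

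Among the proteases 7 of 8 members were lower, and 0 had separate groups or an unadjusted p under 0.05. Ctsd was at 367, 407 and 311 CPM in controls and 413, 285 and 259 CPM in the libraries labelled shDNAJB1. The library shDNAJB1 1 held the highest value of all 6, and the other 2 labelled libraries the lowest. This gave a log2 fold change of -0.18 (SE 0.20, adjusted p = 0.865 by edgeR), and -0.41 without shDNAJB1 1. Exons of Ctsd share 808 bases with Gm49369 on the same strand, and Gm49369 was listed with 0 counts in every library.

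Ctsb had the smallest unadjusted p of the proteases, 0.189 by edgeR. Its level was 680, 582 and 563 CPM in controls and 589, 518 and 486 CPM in the libraries labelled shDNAJB1, with a log2 fold change of -0.20 (SE 0.14). Both low values came from shDNAJB1 2 and 3, and shDNAJB1 1 lay among the controls. For Ctsa, which codes for protective protein cathepsin A, shDNAJB1 1 was the highest library and the other 2 labelled libraries the lowest, with a log2 fold change of -0.10. The cysteine protease gene Ctsl was at -0.09. Ctsh and Ctsz, both exopeptidase genes, were at -0.18 and -0.20. Tpp1, a tripeptidyl peptidase gene, was at -0.00, and Ctsf, another cysteine protease gene, at 0.07. The sign changed on leaving out some single library for Ctsa, Ctsf, Ctsh, Ctsl and Tpp1.

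The glycosphingolipid enzymes and their activator were lower in 7 of 8 members, with log2 fold changes from -0.19 to 0.02 and no separate groups. Psap was at 1516, 1354 and 1240 CPM in controls and 1344, 1237 and 1300 CPM in the libraries labelled shDNAJB1. Control 1 was the highest library, and the groups overlapped. With all libraries the log2 fold change was -0.08 (SE 0.13, adjusted p = 0.920 by edgeR), and it was 0.0023 without control 1. Smpd1, acid sphingomyelinase, had the smallest unadjusted p of the set, 0.184 by edgeR, at 103, 87.2 and 78.9 CPM in controls against 78.7, 79.7 and 79.5 CPM. Its 3 labelled libraries lay close together, and control 3 lay among them. Glb1, the beta-galactosidase, was at -0.19, Hexa, a subunit of beta-hexosaminidase, at -0.14, and Galc, the galactosylceramidase that degrades myelin galactolipids, at -0.13 (SE 0.11). Gla, the alpha-galactosidase, was at -0.02, Arsa, which removes sulfate from sulfatide, at -0.03, and Asah1, acid ceramidase, at 0.02. The sign of Gla, Arsa and Asah1 changed on leaving out some single library. Exons of Glb1 share 165 bases with Tmppe on the same strand, which had 75 to 272 counts.

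The glycosidases of glycogen and glycoproteins did not move together. Gaa was at 522, 457 and 468 CPM in controls and 328, 584 and 638 CPM in the libraries labelled shDNAJB1. The labelled group thus held both the lowest and the highest library, 1.94-fold apart, and its SD of 166 CPM compares with 34.7 CPM in controls (n = 3 each). Its log2 fold change was 0.10 (SE 0.23, adjusted p = 0.947 by edgeR), 0.34 without shDNAJB1 1 and -0.08 without shDNAJB1 3. Man2b1, the acid alpha-mannosidase, was at 47.5, 63.4 and 49.5 CPM in controls and 56.7, 43.8 and 41.1 CPM in the libraries labelled shDNAJB1, with overlapping groups (log2 fold change -0.18, SE 0.17, adjusted p = 0.846 by edgeR). Neu1, a sialidase gene, was the steadiest of this set, with 38.8 to 40.8 CPM in controls against 35.1 to 38.7 CPM. Its groups were separate but nearly touched, and its value was -0.08 (SE 0.10). Manba, the beta-mannosidase, was at 0.13 (SE 0.13).

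Among the enzymes of glycosaminoglycan breakdown 2 of 4 members were lower and 2 higher. Idua, the iduronidase, was the member furthest above control. It was at 16.7, 18.5 and 20.0 CPM in controls and 22.0, 22.4 and 22.3 CPM in the libraries labelled shDNAJB1, with a log2 fold change of 0.27 (SE 0.12, unadjusted p = 0.0565, adjusted p = 0.765 by edgeR). Exons of Idua share 124 bases with Dgkq and 141 with Slc26a1, both on the opposite strand. Ids was at 624, 603 and 618 CPM in controls and 490, 639 and 644 CPM in the libraries labelled shDNAJB1. Only shDNAJB1 1 was low, as for Gaa, and the log2 fold change was -0.06 (SE 0.14, adjusted p = 0.950 by edgeR) with it and 0.06 without it. Arsb, which removes sulfate from dermatan sulfate, was at -0.30 (SE 0.14), with control 3 inside the labelled range. Of the exonic bases of Arsb, 39.9% lie in exons of Gm26527 and Gm47210 on the opposite strand, the largest shared part of any member. Naglu, an enzyme of heparan sulfate breakdown, was at 0.10 (SE 0.20), and its value was -0.017 without control 2 and -0.021 without shDNAJB1 1.

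Among the ion channels, pumps and transporters 1 of 4 members was lower, and the log2 fold changes ran from -0.13 to 0.13 with overlapping groups. Atp13a2, a pump that exports polyamines from lysosomes, was at 155, 133 and 148 CPM in controls and 139, 128 and 132 CPM in the libraries labelled shDNAJB1. The groups overlapped and the log2 fold change was -0.13 (SE 0.11, adjusted p = 0.835 by edgeR). Mcoln1, the calcium release channel TRPML1, was at 47.8, 52.2 and 58.3 CPM in controls and 57.3, 59.1 and 57.01 CPM in the libraries labelled shDNAJB1, with control 3 among the labelled libraries (log2 fold change 0.13, SE 0.11, adjusted p = 0.832 by edgeR). Tmem175, a lysosomal potassium and proton channel, was at 0.01 (SE 0.14), and 35.3% of its exonic bases lie in exons of Dgkq on the opposite strand. Cln3, a membrane protein whose loss causes juvenile Batten disease, was at 0.04 (SE 0.16). Both changed sign on leaving out some single library.

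Grn codes for progranulin, a secreted and lysosomal protein whose loss causes frontotemporal dementia or a lysosomal storage disease. Its level was 38.8, 54.2 and 36.1 CPM in controls and 52.3, 42.0 and 39.3 CPM in the libraries labelled shDNAJB1. Control 2 and shDNAJB1 1 were the high libraries, 1 in each group. Its log2 fold change was 0.05 (SE 0.18, adjusted p = 0.972 by edgeR), and -0.083 to 0.25 with 1 library left out.

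Tfeb (ENSMUSG00000023990, chromosome 17, 47737030 to 47792419, plus strand) was at 11.3, 12.5 and 12.04 CPM in controls and 13.5, 8.40 and 6.43 CPM in the libraries labelled shDNAJB1. Controls were tight, with an SD of 0.65 CPM against 3.65 CPM in the labelled group, and shDNAJB1 1 was the highest library of all 6 while shDNAJB1 2 and 3 were the lowest. The ratio of the highest to the lowest library, 2.10, was the largest of the 37 members. The log2 fold change was -0.34 (SE 0.26, 95% interval -0.95 to 0.27, adjusted p = 0.821 by edgeR). It was -0.69 without shDNAJB1 1, with an adjusted p of 0.238 there and 0.238 to 1.00 over the 14 alternatives, and -0.13 without shDNAJB1 3. Regrouping the 6 libraries in all 20 ways gave an exact two-sided permutation p of 0.4, and this design cannot go below 0.1. Transcript level does not report the nuclear entry of TFEB, by which the protein is mainly controlled.

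Letters of TFEB-type sites were frequent around the RefSeq start sites of the members. RefSeq promoter windows of GRCm38.p6, which run from 250 bases before to 50 after each annotated start, matched 33 of the 37 members; Ctsb, Ctsh, Asah1 and Npc1 were not matched. The letters CACGTG, which read the same on both strands, were in the windows of 12 of the 33 members, or 36.4%, against 8.09% of 27025 genes in the table and 10.99% of the 12652 that were tested. The longer TCACGTGA, which contains CACGTG, was in 5 of 33, or 15.2%, against 1.12% of genes in the table and 1.905% of those tested. With a G before and a C after it, it was in 1 of 33, or 3.03%, namely Cln3, against 0.37% and 0.656%. Of the members with separate groups, only Lamp1 held CACGTG. Lamp2, Scarb2, Neu1, Lipa and Idua held 0 matches, and Npc1 had no window. A match is a description of letters and not a site shown to be bound. The stretches below are those of Lamp1, which held the most matches and had separate groups, and of 4 of the 5 members with TCACGTGA, in lower case with CACGTG in capitals, 5′ to 3′ on the strand of the gene.
Lamp1, chr8:13159093-13159160, plus strand: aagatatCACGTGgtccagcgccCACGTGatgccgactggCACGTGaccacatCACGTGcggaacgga
Mcoln1, chr8:3500461-3500490, plus strand: caggcgccccgctCACGTGaccgcggcgca
Cln3, chr7:126583340-126583369, minus strand: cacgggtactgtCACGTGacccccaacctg
Ctsd, chr7:142387904-142387933, minus strand: ccgcgtctCACGTGacccgttgagggccaa
Gla, chrX:134601188-134601237, minus strand: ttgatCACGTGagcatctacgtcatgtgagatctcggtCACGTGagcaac

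Counted from the RefSeq start site of the window, the 4 matches of Lamp1 began at -61, -45, -28 and -15. Those shown began at -45 in Mcoln1, -121 in Cln3, -98 in Ctsd, and -227 and -194 in Gla. Other annotated starts exist. In the GENCODE models Mcoln1 begins at 3500457, and Cln3 and Ctsd, on the minus strand, begin at 126585817 and 142388038. The stretches shown for Mcoln1, Cln3 and Ctsd thus lie inside the gene in those models. The 12 members with CACGTG had a median log2 fold change of -0.02, with 7 of 12 lower, and the 21 matched members without it had a median of -0.12, with 17 lower. Lamp1 was at -0.33, Mcoln1 at 0.13, Cln3 at 0.04, Ctsd at -0.18 and Gla at -0.02. Over all tested genes with a window the medians were -0.02 with the letters and -0.01 without them.

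The library shDNAJB1 3 had the lowest level for 20 of the 37 members, 54.1% against 18.8% of all genes, and shDNAJB1 1 the highest for 14 members, 37.8% against 21.5%. A recurring order put control 2 and shDNAJB1 1, 1 library of each group, above the other 4. This order, singled out after its values were seen, held for 11 members, 29.7% against 8.92% of all genes. The 11 were Ctsd, Ctsh, Ctsz, Tpp1, Man2b1, Gla, Hexa, Asah1, Cln3, Grn and Tfeb. Markers of microglia, the brain macrophages, which are rich in lysosomes, had the same top pair for 11 of 12 genes. The 12 markers summed to 305, 474 and 248 CPM in control 1, 2 and 3 and to 518, 205 and 164 CPM in shDNAJB1 1, 2 and 3, and 11 of 12 had a log2 fold change below 0 with a median of -0.21. P2ry12, a receptor of resident microglia, was at 30.1, 47.0 and 22.5 CPM and at 48.4, 15.5 and 12.6 CPM, and no microglia marker was at 0 in any library. This top pair was not particular to the microglia markers. The sum of the dopaminergic markers was also highest in control 2 and next in shDNAJB1 1. It was 1486, 3804 and 1690 CPM in controls and 2797, 2356 and 1124 CPM in the libraries labelled shDNAJB1. Of its genes, Th, Slc6a3, Slc18a2, Ddc, Pitx3, En1 and Aldh1a1 had control 2 and shDNAJB1 1 as their top pair. Ret had control 2 and shDNAJB1 2. Nr4a2 was instead highest in shDNAJB1 3, at 95.9 CPM against 67.1 CPM in control 2. Foxa2 was highest in shDNAJB1 2, at 11.8 against 8.83 CPM, and the rest of the list was highest in control 2. In bulk tissue, fewer cells of a type and less RNA per cell cannot be told apart, and the part of these cells in the member values was not tested.

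Among the members, 5 are known for high levels in microglia, namely Ctsb, Ctsd, Ctsh, Ctsz and Grn. Their sum was 1122, 1085 and 941 CPM in controls and 1098, 870 and 811 CPM in those labelled shDNAJB1, a narrower spread than that of the microglia markers. Ctsh was at 8.86 to 13.3 CPM in controls and 7.07 to 13.8 CPM in the libraries labelled shDNAJB1. With control 2 and shDNAJB1 1 both left out, a choice made after seeing the data, 30 of 37 members were below control with a median of -0.15, against 49.2% of all genes below control. At that setting 4 members were lower at an unadjusted p under 0.05 by edgeR, namely Lamp1, Lamp2, Npc1 and Tfeb, against 6.27% of all genes lower and 5.98% higher.

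Markers of oligodendrocytes, the myelinating cells, were also lower beside the members with separate groups. All 12 had a log2 fold change below 0, with a median of -0.52, and 8 had separate groups, against 7.06% of all genes separate lower. The sum was 15347 to 16516 CPM in controls and 8911 to 16133 CPM in the libraries labelled shDNAJB1, lowest in shDNAJB1 3. Myrf, the transcription factor of myelin genes, was at 154, 160.0 and 157 CPM in controls and at 117, 117 and 91.5 CPM in the libraries labelled shDNAJB1, and no marker of the list was at 0. Pan-neuronal markers were lower in 8 of 8, with sums of 5999.7 to 7674 and 4754 to 6129 CPM, and GABAergic markers in 4 of 6, with sums of 1635 to 2117 and 895 to 2224 CPM. Astrocyte markers were lower in 6 of 10, with sums of 4159 to 5597 and 3669.5 to 4510 CPM, and endothelial markers in 1 of 8, with sums of 313 to 355 and 310 to 514 CPM. Macrophage markers were nearly absent, with sums of 4.86 to 12.2 and 5.92 to 6.57 CPM, and Lyve1, Pf4 and Ms4a7 were at 0 in some libraries. The part of these cell types in the member values was not tested.

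**Figure D4:**
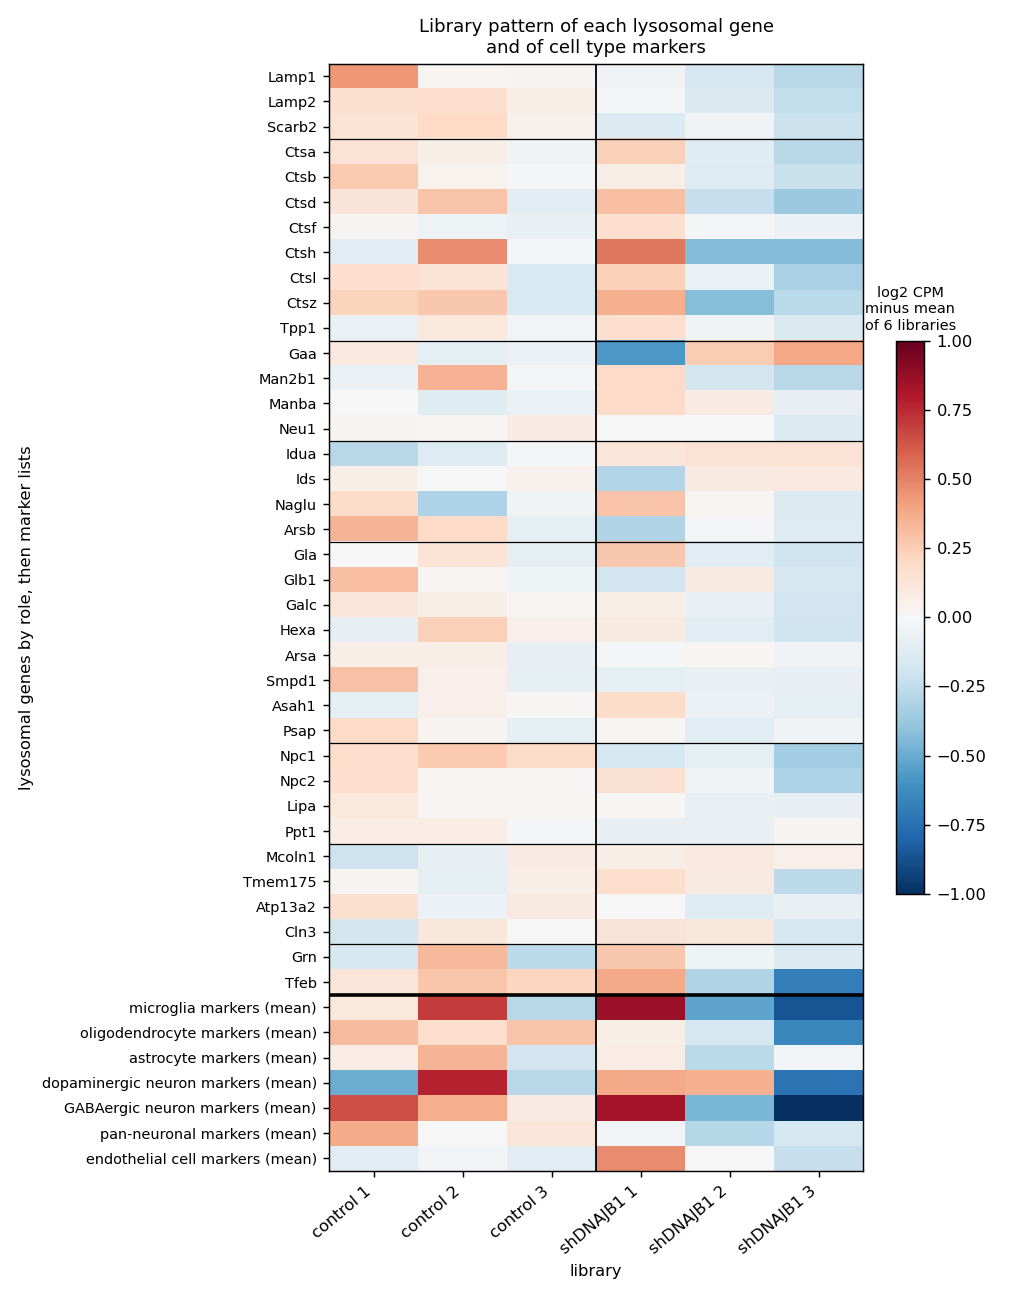
Log2 CPM of each lysosomal gene minus its mean over the 6 libraries, by role, and below the thick line the mean of the same quantity over each list of cell type markers. Colours end at ±1, which the GABAergic mean in shDNAJB1 3 passes at -1.47. Control 2 and shDNAJB1 1 are red for the microglia markers and for genes such as Ctsh, Ctsd, Ctsz and Grn. The dopaminergic mean is also above 0 in control 2, shDNAJB1 1 and shDNAJB1 2, at 0.77, 0.38 and 0.36. Gaa is lowest in shDNAJB1 1 at -0.58.

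The rest of the lysosomal pathway was described from 5 further lists of 105 tested genes, of which 72 were lower. Groups were separate for 12 genes lower and 0 higher, or 11.4% lower, against 7.06% of all genes lower and 6.98% higher. At an unadjusted p under 0.05 by edgeR, 4 were lower and 0 higher, or 3.81% lower against 3.33% of all genes, and 0 had an adjusted p under 0.05. Other hydrolases and their modifiers were lower in 17 of 29 genes, with a median of -0.04. In that list Arsg, an arylsulfatase of heparan sulfate breakdown, was at 75.6, 61.2 and 68.4 CPM in controls and 50.4, 45.8 and 35.8 CPM in the libraries labelled shDNAJB1 (log2 fold change -0.64, SE 0.15, unadjusted p = 0.00307, adjusted p = 0.765 by edgeR). Hgsnat, the acetyltransferase of the same pathway, was at 67.2, 49.4 and 63.8 CPM and at 46.4, 45.5 and 43.8 CPM, also with separate groups (log2 fold change -0.41, SE 0.13). Among the members, the heparan sulfate enzymes Idua, Ids and Naglu were not lower together. Dnase2a was furthest above control in the list of other hydrolases, at 0.59 (SE 0.31), with overlapping groups.

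Subunits of the V-ATPase, the proton pump that acidifies lysosomes, were lower in 15 of 18 genes, with a median of -0.11 and 0 genes at an unadjusted p under 0.05. Atp6v1b2, a subunit of the catalytic part, was at 721, 610 and 657 CPM in controls and 592, 587 and 573 CPM in the libraries labelled shDNAJB1, with separate groups. The smallest unadjusted p of that list, 0.108 by edgeR, was that of Atp6v0e, which was higher. Its log2 fold change was 0.36 (SE 0.20), with overlapping groups. Other membrane proteins were lower in 16 of 22, with a median of -0.09. Tpcn2 had the smallest unadjusted p of these, 0.0570 by edgeR, and was higher. It was at 3.18, 5.89 and 4.09 CPM in controls and 10.5, 5.99 and 5.43 CPM in the libraries labelled shDNAJB1. Its groups overlapped, and its log2 fold change of 0.74 (SE 0.33) was the largest of the 105 genes in either direction. Genes for delivery to lysosomes were lower in 16 of 19, with a median of -0.07. Sort1, the sorting receptor sortilin, was at 311, 313 and 315 CPM in controls and 198, 258 and 257 CPM in the libraries labelled shDNAJB1, lower in each labelled library and lowest in shDNAJB1 1 (log2 fold change -0.40, SE 0.13, unadjusted p = 0.018, adjusted p = 0.765 by edgeR). Vps41, a subunit of the HOPS tether for fusion with lysosomes, was at 202 ± 15.2 and 168 ± 1.55 CPM (SD, n = 3 each), with a log2 fold change of -0.27 (SE 0.11). The relatives and regulators of TFEB were lower in 8 of 17 genes, with a median of 0.03, 0 separate groups and 0 genes at an unadjusted p under 0.05 by edgeR.

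**Figure D5:**
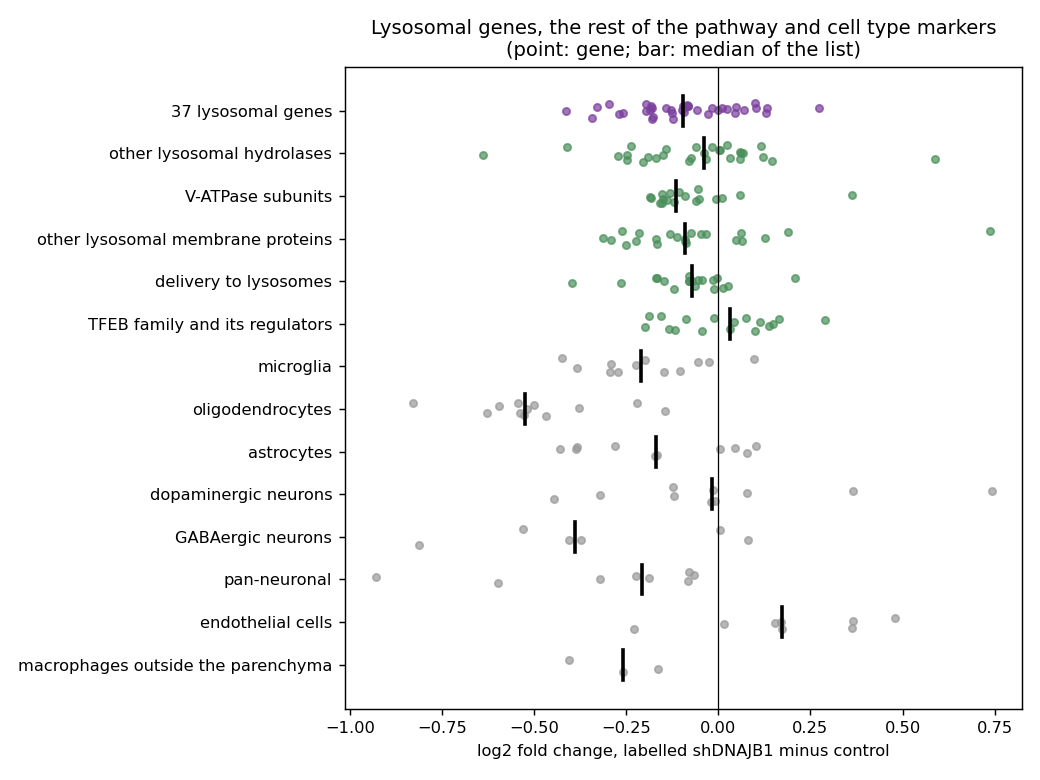
Log2 fold change of the 37 lysosomal genes, of 5 further lists of the lysosomal pathway and of cell type markers, libraries labelled shDNAJB1 minus control, with 1 point per gene and a bar at each median. The medians of the lysosomal genes and of the V-ATPase subunits lie near -0.1, that of the TFEB relatives and regulators at 0.03 and that of the oligodendrocyte markers at -0.52.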

How the data were processed

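Per the labels' protocols, Trizol was used to isolate total RNA and a TruSeq kit for stranded libraries. The authors deposited raw counts for each Ensembl gene, with 1 table per library. FastQC 0.11.5, STAR 2.5.3a, Cuffnorm, DESeq 1.16.1 and the build mm10 are named, per the submitters' processing notes; no source used here names the counting tool, annotation release, strand setting or handling of multiply placed reads. GENCODE gene models on mm10 gave symbols, positions and exon lengths. Exons of 17 members share bases with another gene, 3 of them on the same strand (Ctsd, Ctsl and Glb1). For 8 members the shared part is over 10% of the exonic bases. With the strand setting not given, the counts of all 17 are uncertain, to differing degrees.

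In R 4.3.3, edgeR 4.0.16 was used for filterByExpr (a count of at least 10, a total of at least 15), TMM scaling and the quasi-likelihood test; p-values of the 18870 genes kept were adjusted by Benjamini-Hochberg. The SE was the log2 fold change divided by the square root of F. The biological coefficient of variation was 24.1%. The alternatives tried were upper-quartile scaling, DESeq2 size factors, a stricter filter, a filter of 1 count only, DESeq2 1.42.0, limma-voom (limma 3.58.1), a replicate block and leaving out libraries. The procedure was tested on simulated data. Members and lists were chosen with earlier results of these data known. Members given in full were those with an unadjusted p under 0.05, the highest per kilobase and the smallest p of each role, and Tfeb; list genes named were among the 4 with the smallest p, or defining markers.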

Additional observations from a re-analysis of the deposited data

How the results depend on the processing

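The median log2 fold change of the 37 members stayed below 0 in all 14 alternatives, from -0.16 to -0.06 on leaving out 1 library, and 0 members had an adjusted p under 0.05 in any. Of the members, 22 kept their sign throughout. Genes past an adjusted p of 0.05 numbered 24 in DESeq2's Wald test and 0 elsewhere. On leaving out 1 library, members with an unadjusted p under 0.05 by edgeR numbered 1 to 8. At that threshold 1.93% to 6.82% of all genes were lower and 1.74% to 6.08% higher. With all 6 libraries and other scaling or filters, members with separate groups numbered 5 to 7 of 37, against 10.5% to 14.7% of all genes. On leaving out 1 library they numbered 7 to 21 of 37, against 19.5% to 34.97% of all genes. Without control 1 they were 7 of 37, against 22.7% of all genes. Without control 2 and shDNAJB1 1 together, chosen after seeing the data, 22 had separate groups. The share of all genes there was 48.4%, since fewer libraries must be apart. Same-numbered libraries did not deviate together (r = 0.037, -0.023 and 0.085 across genes). The replicate block gave 4 members with an unadjusted p under 0.05 by edgeR, all lower, against 4.03% of all genes lower and 3.69% higher. Its median over the members was -0.10, with 0 genes past the threshold. The sign changed in some alternative for 15 members, whose log2 fold changes over all 6 libraries ran from -0.18 to 0.10. For 12 of these it changed only when 1 or 2 libraries were left out. The cause was not tested. With the stricter filter Gla was at 0.0079 and Tpp1 at 0.022, with upper-quartile scaling Gla at 0.0032 and Tpp1 at 0.017, and Tmem175 was at -0.0051 in DESeq2 and -0.010 in limma-voom. Without control 2 and shDNAJB1 1 Asah1 was at -0.041, Ctsf at -0.015, Ids at 0.044, Naglu at -0.14 and Tmem175 at -0.13. On leaving out 1 library the ranges were -0.067 to 0.0045 for Arsa, -0.069 to 0.077 for Asah1, -0.025 to 0.14 for Cln3, -0.26 to 0.011 for Ctsa, -0.0041 to 0.11 for Ctsf, -0.57 to 0.021 for Ctsh, -0.25 to 0.034 for Ctsl, -0.080 to 0.34 for Gaa, -0.17 to 0.077 for Gla, -0.083 to 0.25 for Grn, -0.12 to 0.059 for Ids, -0.021 to 0.24 for Naglu, -0.14 to 0.0023 for Psap, -0.082 to 0.13 for Tmem175 and -0.095 to 0.067 for Tpp1.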
